A study of Homo sapiens with 6 samples.

Results

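Cyclin-dependent kinase 1 (CDK1) with its B-type cyclins is the kinase that drives cells from G2 into mitosis, and 10 genes of this engine were examined here in OFD1-depleted cells. They are CDK1 itself, the cyclins CCNA2, CCNB1 and CCNB2, the CDK1-binding subunit CKS1B, the activating phosphatases CDC25B and CDC25C, the inhibitory kinases WEE1 and PKMYT1, and MASTL, the Greatwall kinase. The members were taken by gene name from the rows of the deposited expression table on primary chromosomes, and all 10 were found there, of 60666 genes in all. The rule uses names and no measured value, but the set was chosen with earlier results of these data known.

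The data are RNA-seq of hTERT-RPE1-TOShOFD1 cells, RPE1 cells (retinal pigment epithelium of human origin, immortalized with telomerase) that carry a lentiviral Tet-On cassette for a short hairpin RNA directed at OFD1. The 3 control samples were wild type by their label and grew without doxycycline (DOX), and the 3 OFD1-depleted samples received 200 ng/mL DOX, which switches the hairpin on. The column names of the deposited values begin with WT in both groups. All 6 samples carry the 72 h time point and share the line and the integrated hairpin cassette. DOX was not given to cells without the hairpin, so an effect of the drug and an effect of the hairpin cannot be told apart. The line was selected by drug resistance after infection, and whether it is 1 clone is not given in the sources used here. The study describes the samples as biological replicates, and the labels number 3 in each group without saying whether these were separate cultures. The p-values below therefore set group differences against the spread between these samples, and may not cover variation between cultures.

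Cyclin A is the first of these cyclins to accumulate, in S phase, and cyclin B follows in G2. A CDK1-cyclin B complex is held inactive by phosphate groups that WEE1 adds in the nucleus and PKMYT1 (Myt1) adds at membranes, and CDC25 phosphatases take them off. Active CDK1 turns on its own activators and turns off its inhibitors, which makes mitotic entry switch-like, while MASTL restrains, through the small proteins ENSA and ARPP19, the phosphatase PP2A-B55 that reverses CDK1 phosphorylation. Many of these genes are transcribed mainly in G2 and M phase and share promoter elements, a CCAAT box read by the NF-Y factor and a cell cycle homology region (CHR) read by the MuvB complexes, and they are kept low in resting cells. Much of the regulation of these proteins is by phosphorylation and destruction, which RNA-seq does not measure.

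The promoters of the members were read first, because they show elements that the expression data do not use. RefSeq promoter windows on GRCh38.p14, from 250 bases before to 50 bases after each annotated start, were given for 8 members, with 15 windows between them, and there was no entry for WEE1 or PKMYT1. The letters searched were CCAAT for the CCAAT box, TTTGAA or TTTAAA for the CHR and TTTCGCGC or TTTGGCGC for an E2F site, on both strands, where TTTAAA reads the same on either strand. A CCAAT box and a CHR stood together in 7 windows of 5 members, CDK1, CCNB1, CCNB2, CDC25C and CKS1B. The same was true of 9.27% of all 35116 windows of this length, while 34.61% held a CCAAT box, 23.99% a CHR and 1.15% an E2F site. The CDK1 windows overlap one another, as do those of CDC25C in pairs, so that these are not independent matches.

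Stretches upstream of 3 members are shown because they carry the same order of elements, with the CCAAT boxes and the CHR in capitals, each running from position -150 to position -1 relative to the RefSeq start on the plus strand. They lie at chr5:69167000-69167149 for CCNB1, chr15:59104996-59105145 for CCNB2 and chr1:154974531-154974680 for CKS1B.
CCNB1: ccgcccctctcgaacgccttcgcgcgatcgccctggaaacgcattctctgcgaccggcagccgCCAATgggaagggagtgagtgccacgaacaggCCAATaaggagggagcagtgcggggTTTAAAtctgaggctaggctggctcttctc
CCNB2: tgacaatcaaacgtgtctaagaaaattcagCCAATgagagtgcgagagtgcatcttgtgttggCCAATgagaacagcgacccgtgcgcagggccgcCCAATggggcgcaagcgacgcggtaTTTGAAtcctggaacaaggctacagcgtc
CKS1B: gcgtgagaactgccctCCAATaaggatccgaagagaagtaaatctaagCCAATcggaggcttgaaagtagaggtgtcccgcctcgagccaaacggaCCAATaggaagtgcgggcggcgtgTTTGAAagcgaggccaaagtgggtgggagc

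In CCNB1 the boxes began at positions -87 and -55, which are 32 bases apart, and the CHR began at -30, which is 25 bases after the nearer box. Within the printed stretch CCNB2 had boxes at -120, -87 and -54, spaced by 33 bases each time, and a CHR at -29, again 25 bases after the nearest box. Farther upstream it had another box at -244, 124 bases from the next, and another CHR at -193. In its printed stretch CKS1B had boxes at -134, -102 and -54, of which the first pair is 32 bases apart, and a CHR at -30, which is 24 bases after the nearest box, and its other boxes at -231 and -192 were spaced by 39 and 58 bases from the next.

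CDK1 and CDC25C are shown over 30 bases only, around a match to the CHR letters in each. For CDK1 this is the match at -69, and those at -13 and 9 lie outside the stretch. Which of them acts as a CHR was not tested. The CDK1 stretch is chr10:60778396-60778425 on the plus strand, from position -82 to -53 of RefSeq start 2, and its CCAAT box reads ATTGG because it lies on the other strand. The CDC25C stretch is chr5:138331813-138331842 on the minus strand, from position -38 to -9 of RefSeq start 4.
CDK1: tctgATTGGctgcTTTGAAagtctacgggc
CDC25C: gcggaaggTTTGAAtggtcaacgcctgcgg

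At this CDK1 start the CCAAT boxes began at -78 and -46, again 32 bases apart, CHR letters began at -69, -13 and 9, and an E2F site began at -128. At start 4 the CHR of CDC25C began at -30, like those of CCNB1 and CKS1B, with a CCAAT box at -85. Relative to start 3 the same letters began at 43, and the windows of starts 1 and 2 held 0 CHR matches. The CCNA2 window held 1 CCAAT box, at -56, and 0 exact CHR matches. MASTL had 0 CCAAT boxes and 2 CHR matches. Of the 4 CDC25B windows, 2 held a single CCAAT box and another a CHR alone. These are matches of letters, and no match says only that these letters are not in the window.

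**Figure D1:**
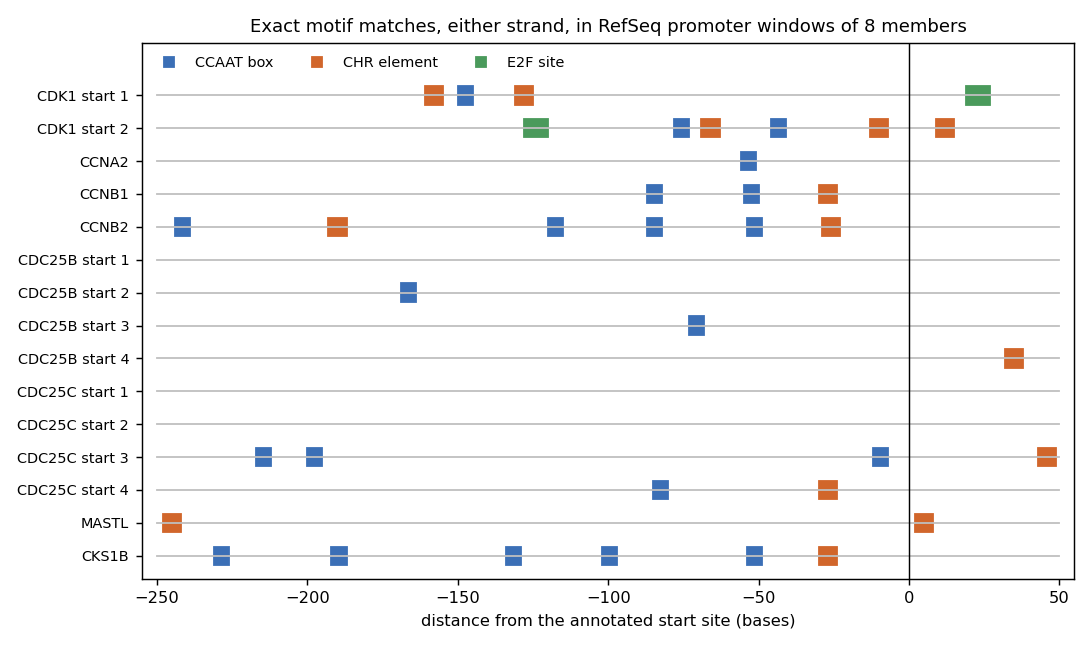
Exact matches, on either strand, to the CCAAT box (blue), CHR (orange) and E2F letters (green) in the 15 RefSeq promoter windows of 8 members, each grey line 1 window from 250 bases before to 50 bases after its annotated start (horizontal axis, bases). CCNB1, CDC25C at start 4 and CKS1B have a CHR beginning at -30 and CCNB2 has one at -29, each downstream of at least 1 CCAAT box.

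Values are FPKM, fragments counted on a gene relative to its transcript length and to all fragments mapped in that sample, as the authors deposited them, and can be compared between genes because they are per length. Differences are log2 fold changes of FPKM + 0.1 between OFD1-depleted and control samples, with the SE, from limma fitted to the 12025 genes whose mean reached 1 FPKM, and adjusted p-values are Benjamini-Hochberg values over all of them, with a threshold of 0.05. The knockdown target OFD1 had 3.34, 3.62 and 3.44 FPKM in control and 0.795, 0.763 and 1.43 FPKM after depletion, and fell to 28.7% of control (log2 fold change -1.75, SE 0.255, adjusted p = 0.00085). Of all genes tested, 11.9% fell and 5.07% rose, and the median log2 fold change was -0.03. The mitochondrial mRNAs made up 6.65% to 11.0% of summed FPKM in control and 12.7% to 15.99% in OFD1-depleted samples. Of 7 cytoskeleton and adhesion genes, VIM, KRT8, KRT18 and CDH2 had means of 4030, 162, 138 and 64.5 FPKM. In the same list KRT19 had 0.0974, CDH1 0.0197 and EPCAM 0 FPKM. RPE65, which defines mature pigment epithelium, had 0.0887 FPKM. Only MITF and OTX2 of the 9 markers of that epithelium reached a mean of 1 FPKM. The summed FPKM of those 9 markers was 7.44 to 7.85 in control and 9.88 to 12.4 in OFD1-depleted samples. The 7 cytoskeleton and adhesion genes, most of whose sum is VIM, summed to 4534 to 4792 FPKM in control and 3941 to 4335 FPKM after depletion. Of 3 endothelial markers 0 reached 1 FPKM, with a sum of at most 0.229 FPKM in any sample. Of 4 leukocyte markers CD68 alone did, with PTPRC at 0.0852 FPKM and sums of 35.7 to 40.7 FPKM in control and 31.5 to 40.1 FPKM after depletion. The part of these markers and of the mitochondrial share in the results below was not tested, except that totals were also equalized without the mitochondrially encoded genes.

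All 10 members were expressed above 1 FPKM and tested, and 9 of them fell in OFD1-depleted cells while 0 rose, against 11.9% of all tested genes that fell. The median log2 fold change of the 10 was -1.02, beside -0.03 for all genes tested. Samples of the 2 groups did not overlap for the same 9 members, against 22.3% of tested genes that were lower without overlap. For 6 members, CDK1, CCNA2, CCNB2, CDC25C, PKMYT1 and MASTL, the fall reached at least 1 on the log2 scale, which 4.39% of tested genes did. Which members reached it depended on the setting. CCNA2, CCNB2 and MASTL stood at -1.02, -1.01 and -1.02, and each at -0.96 with median-of-ratios scaling. CDC25C was at -0.95 with a pseudocount of 1, and CDC25B at -1.10 in TPM. WEE1 was the member that did not pass the threshold. In bulk RNA, fewer cells in a given state and less RNA per cell cannot be told apart.

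**Figure D2:**
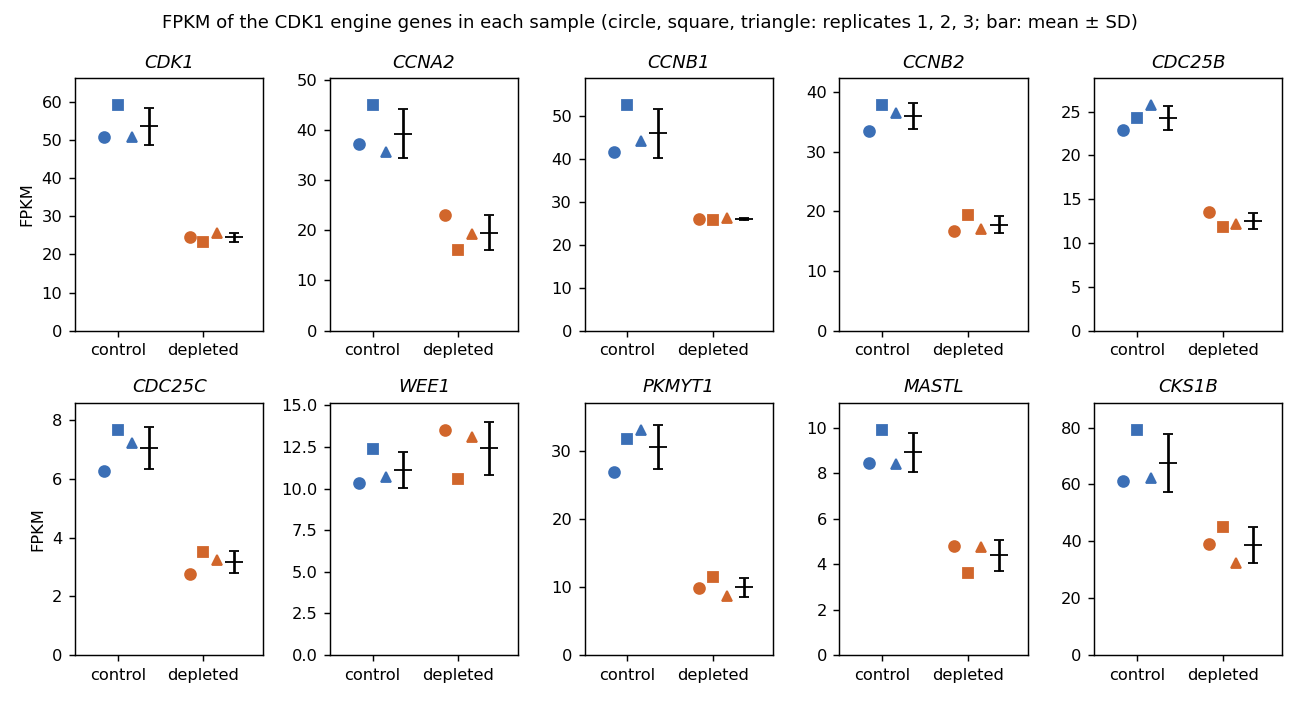
FPKM (vertical axes, starting at 0, each gene with its own scale) of the 10 members in the 3 control (blue) and 3 OFD1-depleted (orange) samples, with circle, square and triangle for replicates 1, 2 and 3 and a bar for the mean ± SD. For 9 members every control value lies above every OFD1-depleted value, and for WEE1 the groups overlap, with 10.3 to 12.4 FPKM in control and 10.6 to 13.5 FPKM after depletion.

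CDK1 (ENSG00000170312, GRCh38 chromosome 10 from 60778331 to 60794852, plus strand), the catalytic subunit, had 50.9, 59.2 and 50.9 FPKM in the control samples. In the OFD1-depleted samples it had 24.7, 23.2 and 25.6 FPKM. The groups were far apart, and the OFD1-depleted samples were closer to one another than the control samples were. Its mean went from 53.7 ± 4.78 to 24.5 ± 1.20 FPKM (SD, n = 3 each), or 45.7% of control, a log2 fold change of -1.12 (SE 0.124, 95% interval from -1.40 to -0.85, limma adjusted p = 0.000147). By a two-sided exact permutation test of the samples, p was 0.1 for CDK1 and for each of the other 8 members that fell, the smallest that 3 samples against 3 can give.

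The cyclins fell with their kinase. CCNB1 (cyclin B1; ENSG00000134057, chromosome 5 from 69167135 to 69178245, plus strand), the main mitotic partner of CDK1, had 41.5, 52.5 and 44.1 FPKM in control and 26.1, 25.8 and 26.2 FPKM after depletion. The 3 OFD1-depleted values were almost the same, with an SD of 0.211 FPKM, while control replicate 2 stood above the other controls. Its fold change was -0.81 (SE 0.129, limma adjusted p = 0.00146), which left 56.5% of control. CCNB2 (cyclin B2; ENSG00000157456, chromosome 15 from 59105126 to 59125045, plus strand), the cyclin found mainly at the Golgi, had 33.5, 37.7 and 36.5 FPKM in control and 16.7, 19.4 and 17.1 FPKM after depletion. It fell to 49.4% of control (-1.01, SE 0.125, limma adjusted p = 0.000302), and its SD was 2.17 FPKM in control and 1.45 FPKM after depletion.

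CCNA2 (cyclin A2; ENSG00000145386, chromosome 4 from 121816444 to 121823883, minus strand), which acts with CDK2 in S phase and with CDK1 in G2, had 37.3, 44.9 and 35.7 FPKM in control samples. After OFD1 depletion it had 23.1, 16.1 and 19.3 FPKM. Among the cyclins it had the widest spread after depletion, an SD of 3.51 FPKM around a mean of 19.5 FPKM, yet no value reached the lowest control. It was at 49.6% of control (log2 fold change -1.02, SE 0.158, limma adjusted p = 0.00128).

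CKS1B (ENSG00000173207, chromosome 1 from 154974653 to 154979251, plus strand) encodes a small protein that docks phosphorylated substrates on CDK complexes and also serves the SCF-SKP2 ubiquitin ligase. It had 61.1, 79.2 and 62.2 FPKM in control and 39.0, 44.9 and 32.3 FPKM after depletion, the highest level of any member in both groups. Control replicate 2 was again the highest sample. The mean went from 67.5 ± 10.2 to 38.7 ± 6.27 FPKM (SD, n = 3 each), or 57.4% of control. With a log2 fold change of -0.80 (SE 0.157, limma adjusted p = 0.00534), this was the smallest fall among the 9, and with no filter on low values the adjusted p was 0.0538. The 7 processed pseudogenes named after it summed to 4.55 FPKM in control and 2.17 FPKM after depletion. How reads shared with them were divided is not given, so the level of CKS1B is uncertain by an amount that is not known.

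The phosphatases that activate CDK1 also fell. CDC25B (ENSG00000101224, chromosome 20 from 3786772 to 3806121, plus strand), regarded as the starter phosphatase that acts at centrosomes in G2, had 22.9, 24.2 and 25.7 FPKM in control and 13.5, 11.8 and 12.2 FPKM after depletion. The spread was small in both groups, and the mean fell from 24.3 ± 1.41 to 12.5 ± 0.906 FPKM (SD, n = 3 each). This was 51.5% of control (-0.95, SE 0.126, limma adjusted p = 0.000428). CDC25C (ENSG00000158402, chromosome 5 from 138285269 to 138338355, minus strand), which amplifies CDK1 activation at mitotic entry, was the least abundant member. It had 6.26, 7.68 and 7.23 FPKM in control and 2.77, 3.52 and 3.24 FPKM after depletion, with no overlap, and fell to 45.0% of control (-1.13, SE 0.160, limma adjusted p = 0.000705).

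Of the inhibitory kinases, PKMYT1 fell and WEE1 did not pass the threshold. PKMYT1 (ENSG00000127564, chromosome 16 from 2968024 to 2980479, minus strand) had 27.0, 31.9 and 33.2 FPKM in the control samples. In the OFD1-depleted samples it had 9.85, 11.5 and 8.62 FPKM, all below the lowest control. The mean went from 30.7 ± 3.27 to 9.98 ± 1.43 FPKM (SD, n = 3 each), or 32.5% of control, the largest fall of the 10 members in log2 terms (-1.62, SE 0.147, 95% interval from -1.94 to -1.29, limma adjusted p = 4.35e-05). PAQR4, which overlaps it on the opposite strand, went from a mean of 16.6 to 5.68 FPKM, and how reads of this pair were divided is not given.

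WEE1 (ENSG00000166483, chromosome 11 from 9573670 to 9593457, plus strand) had 10.3, 12.4 and 10.7 FPKM in control and 13.5, 10.6 and 13.1 FPKM after depletion. The groups overlapped, since OFD1-depleted replicate 2 lay below 2 of the 3 controls. Means were 11.1 ± 1.08 and 12.4 ± 1.59 FPKM (SD, n = 3 each), a log2 fold change of 0.15 (SE 0.145, limma adjusted p = 0.522; two-sided exact permutation p = 0.3). The 95% interval of that difference ran from -0.17 to 0.47, so a fall of the size seen in the other 9 members lies outside it, whereas a small change in either direction does not. Over the alternative settings its value ranged from 0.0070 to 0.30, with no adjusted p under 0.0524.

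MASTL (ENSG00000120539, chromosome 10 from 27154824 to 27187953, plus strand) had 8.44, 9.92 and 8.43 FPKM in control and 4.82, 3.60 and 4.74 FPKM after depletion. OFD1-depleted replicate 2 was the lowest, and all 3 were below every control. MASTL fell to 49.1% of control (log2 fold change -1.02, SE 0.160, limma adjusted p = 0.00141).

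**Figure D3:**
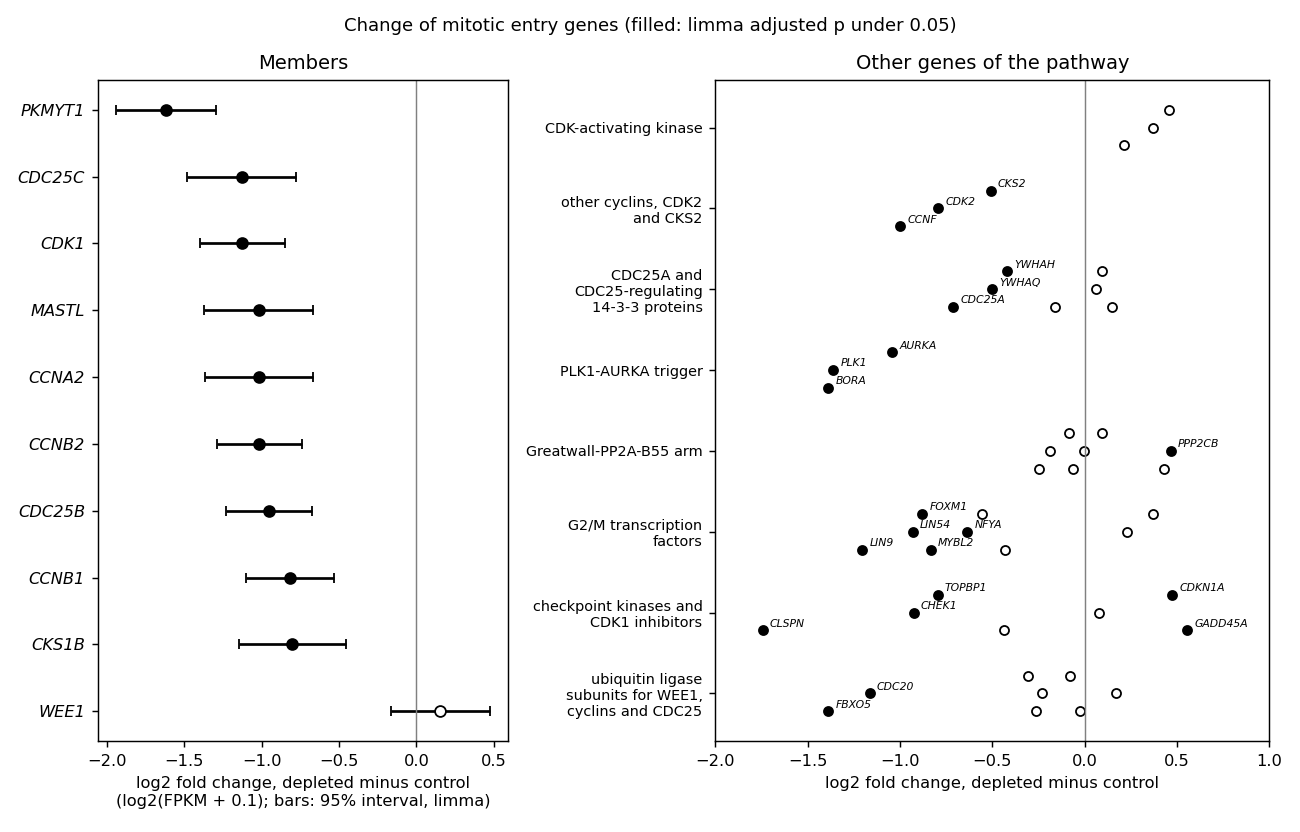
Log2 fold changes, OFD1-depleted minus control, on the log2(FPKM + 0.1) scale (horizontal axes), for the 10 members with 95% intervals (left) and for the 48 tested genes of the wider pathway in 8 role groups (right), with filled points for a limma adjusted p under 0.05. On the left 9 intervals lie below 0, from PKMYT1 at -1.62 to CKS1B at -0.80, and that of WEE1 spans 0. On the right 19 filled points lie below 0 and 3 above.

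In control cells the members ranked, by mean FPKM, CKS1B, CDK1, CCNB1, CCNA2, CCNB2, PKMYT1, CDC25B, WEE1, MASTL and CDC25C. The neighbours CDK1 and CCNB1, CCNB1 and CCNA2, and CCNA2 and CCNB2 overlapped in their sample values, and the other neighbours did not. After OFD1 depletion CCNB1, at 26.0 ± 0.211 FPKM, stood above CDK1, at 24.5 ± 1.20 FPKM (SD, n = 3 each). PKMYT1 moved from rank 6 to rank 8, below WEE1. After depletion CCNA2 overlapped with CCNB2, CDC25B with WEE1 and WEE1 with PKMYT1, and the other neighbours did not overlap.

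Ratios between members within a sample are left nearly unchanged by a factor that multiplies all values of that sample. In all, 11 were compared, several of which share CDK1 or WEE1. WEE1 stood at 0.204, 0.210 and 0.212 of CDK1 in the control samples, a narrow range. It stood at 0.549, 0.458 and 0.514 of CDK1 in the OFD1-depleted samples, so the WEE1/CDK1 ratio was 2.42-fold higher, with no overlap. The PKMYT1/WEE1 ratio was 2.60, 2.57 and 3.08 in control and 0.730, 1.08 and 0.660 in OFD1-depleted samples, a difference of -1.77 on the log2 scale. PKMYT1 was thus the more abundant transcript of these inhibitory kinases in every control sample, and in 1 of 3 OFD1-depleted samples.

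The activators also shifted against WEE1. CDC25B/WEE1 went from a geometric mean of 2.18 to 1.01 (log2 difference -1.11), and CDC25C/WEE1 from 0.638 to 0.262 (-1.28), without overlap in either. The ratio of CCNB1 to CDK1 was 0.816, 0.887 and 0.866 in control and 1.05, 1.11 and 1.02 in OFD1-depleted samples, a difference of 0.31 on the log2 scale, again with no overlap. These 5 of 11 ratios did not overlap between groups, with an exact permutation p of 0.1 each (two-sided, Benjamini-Hochberg adjusted over the 11 ratios 0.22). None could pass the threshold with 3 samples a group. All of them but CCNB1/CDK1 set WEE1 against a member that fell without overlap, so they largely restate the results for single genes. The share of other gene pairs whose ratios do not overlap was not computed.

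The 6 other ratios overlapped between groups. CCNB2/CDK1 and CCNA2/CDK1 differed by 0.11 each on the log2 scale, less than the SD of 0.181 and 0.222 in the OFD1-depleted samples. The ratio of MASTL to CDK1 was nearly constant in control, at 0.167, 0.169 and 0.167, with an SD of 0.0083 on the log2 scale, and was 0.198, 0.159 and 0.188 after depletion. CKS1B/CDK1 differed by 0.32, CCNB1/CCNB2 by 0.20 and CDC25B/CDC25C by 0.18 on the log2 scale.

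**Figure D4:**
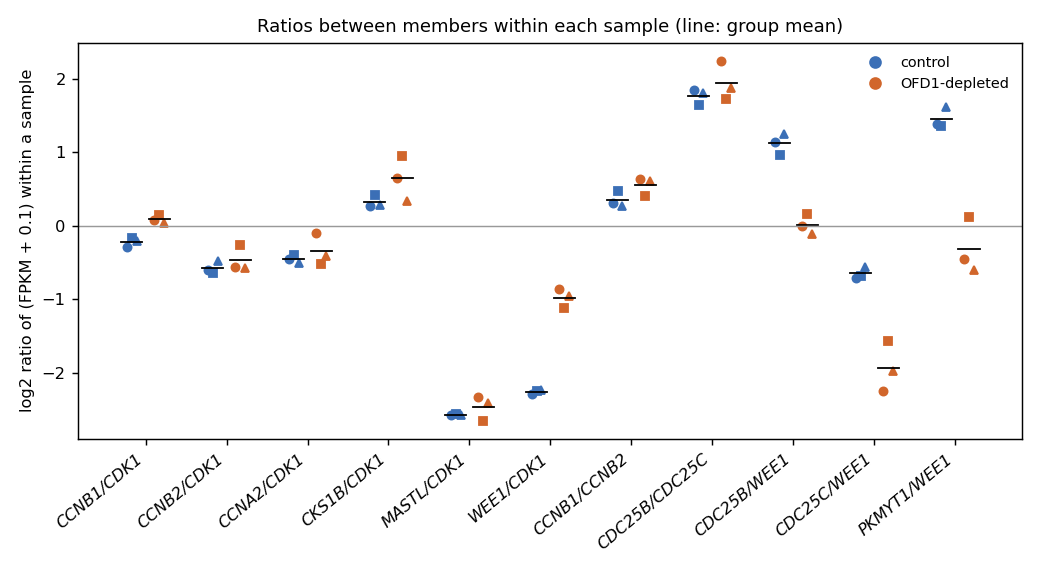
Log2 ratios of (FPKM + 0.1) between members within each of the 3 control (blue) and 3 OFD1-depleted (orange) samples, with circle, square and triangle for replicates 1, 2 and 3 and a line at each group mean. The groups separate for CCNB1/CDK1, WEE1/CDK1, CDC25B/WEE1, CDC25C/WEE1 and PKMYT1/WEE1, by 0.31, 1.28, -1.11, -1.28 and -1.77 on the log2 scale.

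Control replicate 2 was the highest control for 8 of 10 members, and control replicate 3 for the other 2 (CDC25B and PKMYT1). By comparison, control replicate 2 was the highest control for 47.5% of all tested genes. The median deviation of the 9 members that fell from their control means was 0.145 on the log2 scale in control replicate 2, where that of all tested genes was 0.0385. The same sample had the lowest share of mitochondrial mRNA, 6.65% of summed FPKM. The 9 members passed the threshold whichever of the 6 samples was left out (largest limma adjusted p = 0.0278, for CKS1B), and also when totals were equalized with the mitochondrially encoded genes left out.

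By profile, the genes most like CDK1 over the 6 samples were CCSAP, FANCE, SH3YL1, ORC6 and POLD3, with root mean square differences of 0.0548, 0.0608, 0.0636, 0.0658 and 0.0670 on the log2 scale, after centring each gene on its control mean. This measure includes the size of the fall, so a gene that fell more or less than CDK1 ranks farther away. CCSAP, FANCE and SH3YL1 had means of 2.29, 3.64 and 8.76 FPKM in control and 1.00, 1.56 and 3.82 FPKM after depletion. ORC6, a subunit of the origin recognition complex, had 13.96, 15.8 and 13.8 FPKM in control and 6.55, 5.75 and 6.42 FPKM after depletion. POLD3, a subunit of DNA polymerase delta, went from 7.32 ± 0.495 to 3.45 ± 0.261 FPKM (SD, n = 3 each). Among the members, MASTL was closest to CDK1, at rank 50 of the tested genes. CDC25C, CCNB2, CCNA2 and CDC25B followed at ranks 82, 86, 108 and 128, then CCNB1 at 325, CKS1B at 586 and PKMYT1 at 1015. WEE1 was at rank 8035.

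The wider pathway was read from a list of 53 genes in 8 role groups, of which 48 were tested. Of these, 19 fell, 3 rose and 26 did not pass the threshold, beside 11.9% and 5.07% of all tested genes, and their median log2 fold change was -0.26. Of the 19, 12 passed in every alternative setting in which they were tested (LIN9 and CLSPN were not tested under the filter at a mean of 5 FPKM), and 7 were lost in at least 1 (CKS2, CDC25A, YWHAH, YWHAQ, BORA, LIN54 and NFYA), and each of the 3 that rose was lost in at least 1.

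Closest to the engine are the kinases that trigger it. All 3 tested genes of this group fell. PLK1, which activates CDC25C and marks WEE1 for destruction, went from 44.5 ± 2.03 to 17.3 ± 1.78 FPKM (-1.36, limma adjusted p = 4.80e-05), and AURKA, which activates PLK1, from 29.1 ± 3.58 to 14.04 ± 0.794 FPKM (-1.04, limma adjusted p = 0.000366). BORA, the cofactor that lets AURKA reach PLK1, was low and went from 2.94 ± 0.103 to 1.13 ± 0.512 FPKM (-1.39, limma adjusted p = 0.00696; SD, n = 3 in each case).

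The CDK-activating kinase, which phosphorylates the activation loop of CDK1, had no gene of 3 past the threshold. CDK7 had 18.9 ± 1.38 FPKM in control and 24.4 ± 1.19 FPKM after depletion (log2 fold change 0.37, limma adjusted p = 0.0622), CCNH differed by 0.46 (limma adjusted p = 0.0831) and MNAT1 by 0.22 (limma adjusted p = 0.267).

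Among the other cyclins, CDK2 and CKS2, 3 of 5 genes were tested and all 3 fell. CCNF (cyclin F), which marks proteins for destruction in G2, went from 8.77 to 4.33 FPKM (49.4% of control), CDK2, the S-phase kinase, from 18.6 to 10.7 FPKM (log2 fold change -0.79), and CKS2, the close relative of CKS1B, from 49.8 to 35.0 FPKM (-0.51). CCNA1 and CCNB3, cyclins known from the germ line, were below the limit for testing. In the group of CDC25A and the 14-3-3 proteins that hold CDC25 phosphatases in check, 3 of 7 tested genes fell, CDC25A (-0.71, limma adjusted p = 0.0150), YWHAQ (-0.50, limma adjusted p = 0.0260) and YWHAH (-0.42, limma adjusted p = 0.0416). Both 14-3-3 estimates were smaller than that of any member which fell, and these differences were not tested.

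Downstream of MASTL, 8 of 10 genes of the Greatwall-PP2A-B55 arm were tested and 0 fell. ENSA and ARPP19, the substrates through which MASTL acts, had 52.7 ± 4.71 and 39.6 ± 4.65 FPKM in control and 50.6 ± 6.68 and 35.0 ± 5.26 FPKM after depletion (SD, n = 3 each), with overlapping groups (limma adjusted p = 0.801 and 0.439). PPP2CB, a catalytic subunit of PP2A, rose from 33.0 ± 3.74 to 45.4 ± 1.69 FPKM (log2 fold change 0.46, limma adjusted p = 0.0294). PPP2R1B, a scaffold subunit, differed by 0.43 (limma adjusted p = 0.0736) and PPP2R2D, a B55 subunit, by -0.25 (limma adjusted p = 0.274).

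Of the 9 genes for factors that regulate the transcription of G2/M genes, 5 fell. FOXM1, an activator of these genes, went from 31.6 to 17.1 FPKM (-0.88, limma adjusted p = 0.000990), MYBL2, which joins the MuvB core in S phase, from 29.6 to 16.6 FPKM (-0.83, limma adjusted p = 0.00186), and LIN9, a MuvB core subunit, from 3.14 to 1.30 FPKM (-1.20, limma adjusted p = 0.00178). LIN54, the MuvB subunit that contacts the CHR, fell by 0.93, and NFYA, a subunit of the factor that binds CCAAT, fell by 0.64 on the log2 scale. LIN37 and NFYC differed by 0.37 and 0.23 on the log2 scale without passing the threshold, as did LIN52 and NFYB by -0.55 and -0.43.

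In the group of checkpoint kinases and CDK1 inhibitors, 3 of 7 genes fell and 2 rose. CLSPN (Claspin), the adaptor through which ATR activates CHEK1, went from 3.38 ± 0.367 to 0.959 ± 0.285 FPKM (-1.74, limma adjusted p = 0.000630), and CHEK1, which restrains CDC25 phosphatases, from 12.0 ± 1.60 to 6.28 ± 0.792 FPKM (-0.93, limma adjusted p = 0.00202). TOPBP1, an activator of ATR, fell by 0.80 on the log2 scale. CDKN1A, which encodes the CDK inhibitor p21, rose from 246 ± 6.64 to 344 ± 48.9 FPKM (log2 fold change 0.47, limma adjusted p = 0.0406), and GADD45A, a stress gene whose product can inhibit CDK1-cyclin B, from 74.7 ± 2.52 to 111 ± 17.2 FPKM (0.56, limma adjusted p = 0.0185; SD, n = 3 in each case).

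Among 8 ubiquitin ligase genes that control the stability of WEE1, the cyclins and CDC25, 2 fell and 0 rose. FBXO5 (EMI1), which inhibits the anaphase-promoting complex in S and G2 phase, went from 13.8 ± 0.448 to 5.20 ± 0.162 FPKM (-1.39, limma adjusted p = 4.35e-05), and CDC20, the activator of that complex in mitosis, from 54.1 ± 1.96 to 24.1 ± 1.38 FPKM (-1.16, limma adjusted p = 9.08e-05; SD, n = 3 in each case). CUL1, the scaffold of SCF ligases, differed by -0.31 (limma adjusted p = 0.122).

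Genes that overlap a member on the chromosome were listed for 7 members. Beside PAQR4, PKMYT1 overlapped KREMEN2, with means of 1.23 FPKM in control and 0.588 FPKM after depletion. FAM53C, opposite to CDC25C, had 10.4 and 12.3 FPKM, ACBD5 and YME1L1, opposite to MASTL, had 8.30 and 10.0, and 37.1 and 40.3 FPKM, and EXOSC9, opposite to CCNA2, had 31.1 and 25.1 FPKM. The methods name a directional library kit, while the labels also speak of another kit. The strand setting of the quantification is not given in the sources used here. Reads of a member and of a gene opposite to it may therefore not have been told apart. The values of CCNA2, CDC25C, MASTL and PKMYT1 are uncertain to that extent. WEE1, CCNB2 and CKS1B overlapped only noncoding genes under 1 FPKM.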

How the data were processed

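RNA-seq was analysed in 6 samples, 3 control and 3 OFD1-depleted, grouped by their labels. The authors deposited 1 table of FPKM values per gene and sample. According to the submitters' processing notes and the methods, reads were aligned to GRCh38 with HISAT2 2.0.5 and summarized with StringTie, whose version is not given in the sources used here. The labels' extraction text speaks of retinas and of another library kit, whereas the samples are cultured cells. The table holds no read counts, so depth is unknown and no count test was used, and dividing by the total makes each value relative to all others in its sample. No sample columns were left unmapped, and 0 pairs of samples held identical values.

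Of 67130 rows, 6464 lay on alternative contigs, all at 0. Values were compared as log2(FPKM + 0.1) with limma 3.58.1 (R 4.3.3, trend of variance) for the 12025 genes whose mean reached 1 FPKM, two-sided, with Benjamini-Hochberg adjustment. The script was tested on simulated data. Single genes and ratios were compared by exact permutation (scipy 1.17.1, Python 3.11.15). Promoter windows came from RefSeq on GRCh38.p14. Genes named are the members, OFD1, up to 3 pathway genes per group with the smallest p-values, any gene past the threshold against its group and the 5 profiles nearest CDK1. LIN54, NFYA, ENSA, ARPP19, LIN37, NFYC, LIN52, NFYB, the genes not tested, those lost in an alternative and the overlapping genes were named after their values were seen. Members and lists were chosen with earlier results of these data known. One marker list is not reported here.

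Alternatives were a pseudocount of 1 or 0.01, no filter or one at 5 FPKM, scaling by TPM, by quantiles or by median of ratios, array weights, no variance trend, the replicate block and leaving out each sample. Equalizing totals without the mitochondrially encoded genes was chosen after seeing the data. Same-numbered samples had correlations of 0.0579, 0.0481 and 0.011 between their deviations from the group means. Those of differently numbered samples ran from -0.0799 to 0.0503. All were weak, so the numbers were not taken as pairs.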

Additional observations from a re-analysis of the deposited data

How the results depend on the processing

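Depth is unknown, and 3 samples a group limit every permutation p to 0.1 or more. The 9 members that fell had the same direction in all 153 alternative values, and passed the threshold in 152, the exception being CKS1B with no filter (adjusted p = 0.0538). WEE1 passed in none and kept its sign. Of the ratios, CCNA2/CDK1 ranged from -0.015 without OFD1-depleted replicate 1, where it reversed, to 0.20 without OFD1-depleted replicate 2. The log2 difference of MASTL/CDK1 was 0.11 as reported, 0.19 after quantile normalization and 0.21 with a pseudocount of 1. That of CDC25B/CDC25C was 0.18, 0.11 and 0.043 in the same order. TPM scaling shifted the log2 median over all genes by -0.15, and relative to the median of all genes the member median was -0.98 as deposited and -0.99 in TPM, and WEE1 was 0.18 and 0.19.

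Counts over wider sets moved more. Among all genes, 1429 fell and 610 rose as reported, 823 and 260 with no filter, 2263 and 1693 with array weights, 1974 and 264 in TPM and 1311 and 1093 after quantile normalization. Leaving out a sample gave 867 (without control replicate 3) to 1741 genes that fell and 244 (without control replicate 3) to 1077 (without OFD1-depleted replicate 2) that rose. Without control replicate 1 the counts were 904 and 251, and 321 and 398 genes rose without OFD1-depleted replicates 1 and 3. The 3 pathway genes that rose became 0 with no filter, 1 in TPM and without the trend, 5 with median-of-ratios scaling and quantile normalization and 6 with array weights. They ranged from 0, without control replicate 1, control replicate 3 or OFD1-depleted replicate 1, to 5 without OFD1-depleted replicate 2. With the replicate block, 1534 genes fell and 762 rose, and 9 members fell, but the samples share only a number, and control replicate 3 and OFD1-depleted replicate 3 were not most like each other. The cause of these shifts was not tested.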
